A study of Mus musculus with 32 samples.

Results

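The nuclear-encoded subunits of the respiratory chain and of ATP synthase were followed across helper T cells given antigen, little of an amino acid, or macrophages that had first met IL-4 plus IL-10. Genes were taken by symbol from the annotation of both array types: names that begin with Nduf and a subunit letter and number, Sdha to Sdhd, and names that begin with Uqcr, Cox4 to Cox8 or Atp5. The rule found 86 genes. Of these, 80 of the 22180 genes were measured at 48 h, 79 of the 17097 genes at 72 h, and 73 at both times. Complex I gave 34 genes, complex II 4, complex III 8, complex IV 11 (with Ndufa4 counted there) and ATP synthase 17. A further 8 were isoforms known from particular tissues, namely Cox4i2, Cox6a2, Cox6b2, Cox7a1, Cox7b2, Cox8b, Cox8c and Ndufa4l2. The last 4 were Cox7a2l, which helps join complexes III and IV, and the pseudogenes Ndufs5-ps, Uqcrh-ps1 and Atp5c1-ps. Each array measured 69 common subunits, meaning the members of the 5 complexes without isoforms and the last 4 genes.

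The respiratory chain passes electrons from NADH (complex I) and succinate (complex II) through coenzyme Q, complex III and cytochrome c to oxygen at complex IV, and pumps protons on the way. ATP synthase uses the returning protons to make ATP. Resting T cells burn fuel largely through this chain, and activated T cells enlarge their mitochondria while they grow and divide. Several small subunits of complex IV exist in a general and a tissue form. Cox6a2, Cox7a1 and Cox8b are the forms known from heart and skeletal muscle, Cox6b2 and Cox8c from testis, and Cox4i2 from lung.

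CD4+ T cells came from lymph nodes of Balb/c mice with the DO11.10 receptor transgene, which recognizes an OVA peptide, and all were cultured with thioglycollate-elicited peritoneal macrophages then purified by sorting on viability and CD4. There were 5 groups with OVA at 48 h, of 3 arrays each: full medium, full medium on macrophages pretreated with both cytokines (each at 10 ng/mL) and washed, and media in which 1 amino acid (arginine, leucine or lysine) was cut to 1% of its usual amount. Cells in the same low media without OVA had 2 arrays for arginine and 3 each for leucine and lysine. At 72 h, 3 arrays each held untreated cells, cells given OVA, and cells given OVA on pretreated macrophages. All T cells carried the same transgene, and the labels leave unsaid whether replicates came from separate animals or cultures, so p-values measure the spread between these arrays. Values are RMA log2 expression, changes are log2 differences ± SE from limma, and a gene was called at a Benjamini-Hochberg adjusted p below 0.05 over all genes of the array. A bulk sample cannot separate fewer cells of a type from less RNA per cell.

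The mean of 10 T cell markers lay between 10.15 and 10.74 in the 48 h groups and between 9.38 and 10.58 in the 72 h groups. The T cell mean was thus not level at 72 h, and markers of other cells moved between groups too. Mesothelial and stromal markers averaged 10.01 in the untreated cells at 72 h, 4.50 with OVA and 5.33 with pretreatment, and macrophage markers ranged from 5.04 to 7.06 on the untreated arrays against 3.91 to 3.92 with OVA. At 48 h the macrophage mean was 6.49 with OVA in full medium, 6.79 to 7.22 on the pretreated arrays, 6.18 to 6.37 in the low media with OVA and 6.97 to 7.04 without OVA. The part of any of these markers in the results was not tested. The full-medium arrays at 48 h carry other runs of submitter numbers than the low-medium arrays, so that run and medium cannot be told apart.

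The subunits most often lower than in full medium with OVA are shown first by their promoters. Uqcr11, a small subunit of complex III, and Ndufa4, a subunit of complex IV, were called lower in all 5 comparisons with that medium (pretreatment at both times and the 3 low media). Atp5g3, which encodes subunit c of the ATP synthase rotor, Ndufb10 and Ndufs1 of complex I, and Uqcrfs1, the Rieske iron-sulfur protein of complex III, were called lower in 4 of 5. The low lysine call of Uqcrfs1 was lost in 6 of 13 alternatives. The 4 comparisons at 48 h share their control arrays and are not independent of each other. The 120 bases before the start site are given below for the 5 of these 6 genes that the RefSeq promoter table (GRCm38.p6, all on the minus strand) holds, 5′ to 3′, at chr10:80406822-80406941, chr6:11907451-11907570, chr2:73911327-73911446, chr17:24724424-24724543 and chr13:30545317-30545436 in this order. Capitals mark a match to CCGGAAGT, the core bound by the ETS factor GABP.
Uqcr11: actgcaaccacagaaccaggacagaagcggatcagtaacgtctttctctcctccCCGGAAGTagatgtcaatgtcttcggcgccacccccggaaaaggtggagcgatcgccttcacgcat
Ndufa4: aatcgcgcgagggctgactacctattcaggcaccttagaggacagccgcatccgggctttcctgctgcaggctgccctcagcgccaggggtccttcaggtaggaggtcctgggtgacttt
Atp5g3: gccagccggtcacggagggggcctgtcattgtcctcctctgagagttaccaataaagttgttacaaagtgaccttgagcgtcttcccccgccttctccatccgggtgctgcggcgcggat
Ndufb10: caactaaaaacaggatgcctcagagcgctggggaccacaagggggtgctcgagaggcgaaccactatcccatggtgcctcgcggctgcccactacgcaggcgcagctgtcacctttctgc
Uqcrfs1: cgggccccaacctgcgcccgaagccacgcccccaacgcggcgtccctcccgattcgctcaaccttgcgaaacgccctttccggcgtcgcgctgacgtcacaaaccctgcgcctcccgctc

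Of these 5 stretches, the one before Uqcr11 held a match, at position -66 from the start site. Across the 68 of 86 genes found in the table, 63 were common subunits, and windows of 250 bases before to 50 after the start were searched on both strands. The palindromic NRF1 consensus, matched exactly, occurred in 5 of 63 (7.94%) against 1.07% of all 27025 genes of the table. CCGGAAGT occurred in 5 of 63 (7.94%) against 4.31%. The YY1 consensus, matched exactly, occurred in 4 of 63 (6.35%) against 0.755%, and the 4 were the complex I genes Ndufa9, Ndufs4, Ndufs6 and Ndufs7. CACGTG, the E-box, occurred in 6 of 63 (9.52%) against 8.09%, and TGATGNAA, the composite C/EBP and ATF site, in 0 of 63 against 4.51%. A match is a run of letters in these windows and says nothing of binding.

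Subunits of every complex were higher with antigen at 72 h in full medium. Of 79 members, 45 rose and 1 fell, which is 58.2% called where 38.2% of all genes were called (20.7% higher). The median change was 0.43 over the members and 0.02 over all genes. Complex I had 23 of 31 subunits higher and 1 lower, complex II 2 of 4 higher, complex III 4 of 7, complex IV 6 of 10 and ATP synthase 8 of 17. The mean over the 69 common subunits was 10.37, 10.41 and 10.49 on the untreated arrays, 10.77, 10.94 and 10.83 with OVA, and 10.34, 10.48 and 10.36 with OVA on pretreated macrophages. The OVA arrays stood above both other groups, which overlapped each other.

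Sdhb, the iron-sulfur subunit of complex II, read 9.78, 9.86 and 9.92 untreated and 10.80, 10.94 and 10.76 with OVA. It rose by 0.98 ± 0.12 (limma adjusted p = 8.13e-05), with no overlap between the groups. Uqcrfs1 read 10.03, 9.81 and 9.77 untreated and 10.85, 10.86 and 10.81 with OVA, a rise of 0.97 ± 0.11 (adjusted p = 2.61e-05). Sdhd, a membrane anchor of complex II, rose by 0.94 ± 0.23. The other subunits of complex II were not called, Sdha at 0.15 ± 0.09 and Sdhc at -0.53. The 4 probe sets of Sdha ranged from -0.06 to 0.51, and the brightest was used. Among the catalytic and core subunits, Cox5a rose by 0.74 ± 0.09, Atp5b by 0.63 ± 0.11, Ndufs1 by 0.58 ± 0.14, Ndufv1 by 0.56 ± 0.15 and Atp5a1 by 0.44 ± 0.09. Uqcrc1 differed by 0.43 ± 0.16 and Cox4i1 by -0.06 ± 0.09, neither called. The 1 common subunit that fell, Ndufa3, differed by -0.28 ± 0.10 (adjusted p = 0.0437), and this call is not kept by 7 of 13 alternatives. When each array was centred on its median, the 72 h change of all genes moved by 0.51, 75 of 79 members rose and none fell, and Ndufa3 stood at 0.23. The untreated arrays are those with the high mesothelial, stromal and macrophage markers given above.

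The same direction was seen at 48 h within each low medium, where OVA was compared with no OVA. In low arginine 49 members rose and 2 fell of 80 (29.4% of all genes called, 17.2% higher), in low leucine 63 rose and 3 fell (41.3% and 21.8%) and in low lysine 52 rose and 3 fell (31% and 18.4%). The member medians were 0.66, 0.89 and 0.76, where the medians of all genes were -0.12, -0.13 and -0.09. Complex I had 25, 29 and 23 of 31 subunits higher in the 3 media and ATP synthase 10, 13 and 11 of 17. Some 48 h probe sets read low and count as not called. Atp5g1 and Atp5j2 averaged 5.59 and 5.61 with OVA in low lysine. At 72 h, on the other array type, they lay above 95.7% and 99.2% of all genes. The mean over common subunits was 8.43 ± 0.08 (SD, n = 2) in low arginine without OVA and 9.16 ± 0.02 (n = 3) with it. It was 8.34 ± 0.25 and 9.28 ± 0.02 in low leucine, and 8.33 ± 0.10 and 9.08 ± 0.30 in low lysine (n = 3 each). Centring the arrays moved all genes up by 0.14 to 0.18 in these comparisons and the member medians to 0.84, 1.07 and 0.90. Quantile normalization gave medians of 0.24, 0.52 and 0.42, and 31 called members in low arginine (27 higher, 4 lower).

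**Figure D1:**
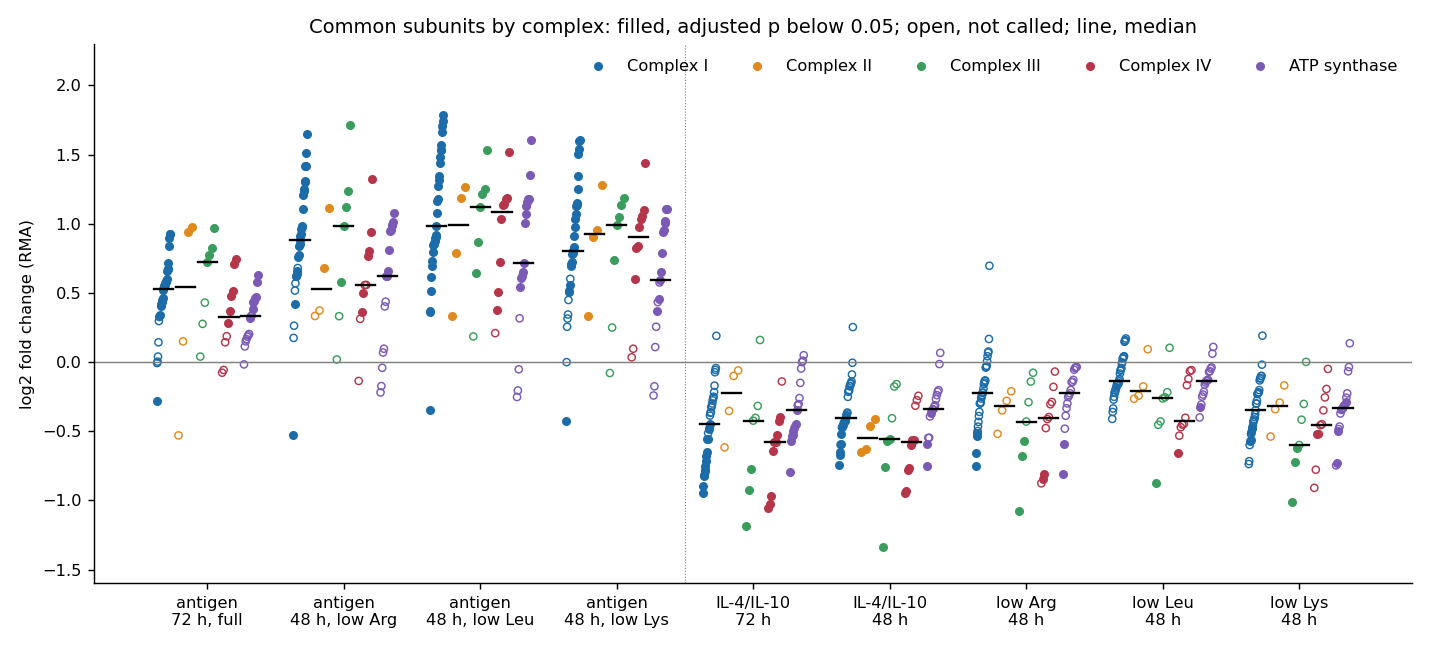
Change of each common subunit (y axis, log2 fold change) in 9 comparisons (x axis), coloured by complex. Filled points were called, open points were not, and black lines are medians over a complex. Medians lie above 0 for every complex in the 4 antigen comparisons and below 0 in the 5 comparisons with full medium.

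Among the common subunits, complex I gave the largest rises with OVA in low leucine and low lysine, and Uqcrq of complex III the largest in low arginine. Ndufs8, an iron-sulfur subunit, read 7.57 and 7.68 in low arginine without OVA and 9.01, 9.08 and 9.32 with it. It read 7.05, 7.09 and 7.43 against 9.07, 8.91 and 8.94 in low leucine, and 7.43, 7.27 and 7.38 against 8.92, 8.73 and 9.24 in low lysine. With OVA every array was above every array without it, and the rises were 1.51 ± 0.15, 1.79 ± 0.13 and 1.60 ± 0.13 (limma adjusted p from 3.42e-10 to 4.18e-08). Ndufc2, an accessory subunit, rose by 1.65 ± 0.16, 1.71 ± 0.14 and 1.60 ± 0.14. Ndufb9 rose by 1.75 ± 0.24 in low leucine and 1.54 ± 0.24 in low lysine, Ndufa12 by 1.51 ± 0.12 in low lysine, and Uqcrq, which sits by the quinone site, by 1.71 ± 0.22 in low arginine. Ndufs8 and Ndufc2 kept their calls under each of the 13 or 14 alternatives run.

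Of 10 catalytic or core subunits, 8 were called higher in all 3 low media (Ndufs1, Ndufv1, Sdhb, Uqcrc1, Uqcrfs1, Cox5a, Atp5a1 and Atp5b), and the exceptions were Sdha and Cox4i1. The share of all genes called higher in all 3 was not taken. Cox5a, which holds a central place in the nuclear shell of complex IV, rose by 1.32 ± 0.19, 1.19 ± 0.17 and 1.44 ± 0.17 in low arginine, leucine and lysine. Atp5b, the catalytic beta subunit, rose by 0.99 ± 0.14, 1.35 ± 0.12 and 1.02 ± 0.12. Sdha, the flavoprotein of complex II, changed less, by 0.33 ± 0.14 (not called), 0.34 ± 0.13 and 0.34 ± 0.13. Cox4i1 rose in low leucine (1.14 ± 0.33) and was not called in low arginine (0.56 ± 0.37) or low lysine (0.10 ± 0.33). Ndufs5 was called lower in the 3 media (-0.52 ± 0.15, -0.35 ± 0.14 and -0.43 ± 0.14), a call that centring of the arrays removes in each medium. In low lysine its probe set averaged 5.74 with OVA and 6.17 without, and the array medians at 48 h ran from 5.58 to 5.85. The signal of Ndufs5 is thus not shown to be above background. A 48 h probe set naming both Ndufs5 and Ndufs5-ps was not used, and at 72 h Ndufs5-ps was called higher with antigen (0.34 ± 0.12). The pseudogenes Uqcrh-ps1 and Atp5c1-ps were called lower in low leucine, by -1.02 ± 0.26 and -0.95 ± 0.29. Uqcrh-ps1 was also called lower in low lysine (-0.83 ± 0.26), and pseudogene probes can share sequence with their parent genes. Whether the antigen effect differed between the 3 media was asked of an F test in limma, which called 0 of 80 members where 33 of all genes (0.149%) were called. At an unadjusted p below 0.05 it gave 6 of 80 members where 8.93% of all genes had one, and the lowest adjusted p was 0.276 for Cox7a2l.

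Across the 73 genes measured at both times, 30 were called higher with antigen in all 4 comparisons and 63 in at least 1. Within single comparisons 17.2% to 21.8% of all genes were called higher. The matching joint shares over all genes were not taken, so 30 and 63 have no background beside them. Genes around the chain rose with them. Cycs, which encodes cytochrome c, rose by 1.97 ± 0.15 at 72 h and by 1.77 ± 0.12, 1.92 ± 0.11 and 1.75 ± 0.11 in low arginine, leucine and lysine. Of the complex I assembly factors, 12 of 15 rose at 72 h and 9, 11 and 11 of 16 in the low media, and none fell. Complex IV assembly factors had 13 of 19 higher at 72 h and 13, 20 and 12 of 21 in the low media. Among them Sco1, a copper chaperone, rose by 2.20 ± 0.20, 2.20 ± 0.18 and 1.46 ± 0.18 in the low media, and Cox17, which hands copper to Sco1, by 2.02 ± 0.17 at 72 h. Mitochondrial ribosomal proteins, which build the subunits encoded in mitochondrial DNA, had 62 of 73 genes higher at 72 h and 58, 66 and 63 of 71 in the low media. The citric acid cycle list had 11 of 15 higher and 1 lower at 72 h, and 15, 14 and 14 of 16 higher in the low media. Cell division genes moved with antigen too. The mean of 19 G2/M genes was 6.73 untreated and 10.03 with OVA at 72 h, and at 48 h it was 5.59 to 5.70 without OVA and 8.94, 8.69 and 7.26 with OVA in low arginine, leucine and lysine. Its part in the rise of the subunits was not tested.

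**Figure D2:**
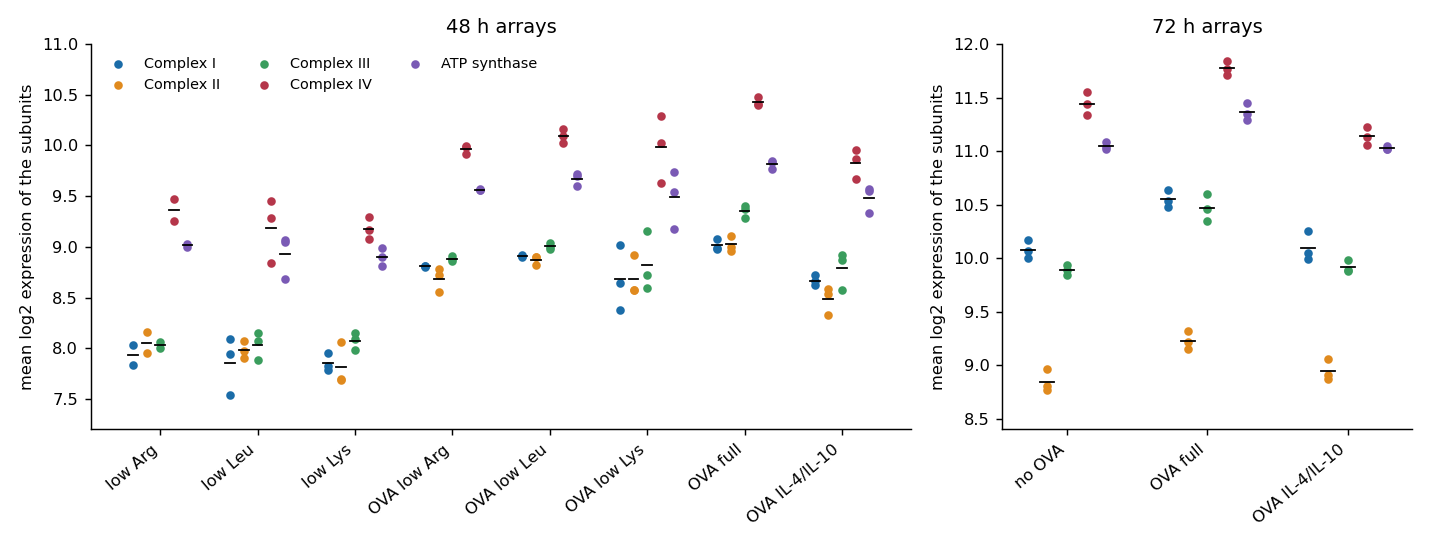
Mean log2 expression of the subunits of each complex (y axis) on every array, by group (x axis), for the 48 h arrays (left) and the 72 h arrays (right). Points are arrays and black lines are group means. The groups without OVA lie lowest at 48 h, and the mean over all common subunits with OVA in full medium is 9.45 at 48 h and 10.85 at 72 h. Heights of different complexes come from different probe sets and are not compared.

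On macrophages pretreated with IL-4 and IL-10, cells given OVA had lower levels of many subunits than cells given OVA on untreated macrophages. At 72 h, 37 of 79 members fell and 1 rose (9.69% of all genes called, 5.91% lower and 3.78% higher), with a member median of -0.40 against 0.02 over all genes. At 48 h, 27 of 80 fell and 1 rose (8.64% called, 5.93% lower and 2.71% higher), with a median of -0.37 against 0.01. The gene that rose was Cox6a2 both times. By complex, 15 of 31 subunits of complex I, 0 of 4 of complex II, 3 of 7 of complex III, 9 of 10 of complex IV and 8 of 17 of ATP synthase fell at 72 h. At 48 h the counts were 9 of 31, 4 of 4, 4 of 7, 7 of 10 and 3 of 17. The 48 h counts include low-reading probe sets, such as Atp5g1 and Atp5j2 at 5.45 and 5.68 with OVA in full medium. At an unadjusted p below 0.05, limma gave 57 of 79 members at 72 h and 40 of 80 at 48 h, where 23.4% and 19.9% of all genes had one.

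The 2 times share no arrays. Of the 73 genes measured at both, 25 were called lower at 48 h and 33 at 72 h, and 17 were called lower at both, which is 68.0% of the 48 h calls and 51.5% of the 72 h calls. The overlap over all genes was not taken, so these shares are not shown to be particular to the subunits. These counts depend on single arrays. Without replicate 3 of the OVA group or of the pretreated group at 72 h, 19 and 20 members were called. At 48 h, 13, 10 and 14 were called without OVA replicate 1, 2 or 3, and 13 and 18 without pretreated replicate 1 or 2. The member median stayed below 0 under every alternative run at either time.

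Uqcr11 fell most among the common subunits. At 48 h it read 9.32, 9.35 and 9.09 with OVA and 7.45, 8.37 and 7.95 with pretreatment, a fall of -1.33 ± 0.22 (limma adjusted p = 0.0004). At 72 h it read 9.54, 10.24 and 9.67 against 8.67, 8.68 and 8.55, a fall of -1.18 ± 0.17 (adjusted p = 0.00283). The groups did not overlap at either time. Cox6b1, a subunit that faces the intermembrane space where complex IV pairs up, read 10.35, 10.53 and 10.38 against 9.33, 9.48 and 9.63 at 48 h. At 72 h it read 11.80, 12.06 and 11.86 against 10.83, 10.85 and 10.87. All pretreated arrays were lower, by 0.94 at 48 h (-0.94 ± 0.14, adjusted p = 0.000109) and by 1.06 at 72 h (-1.06 ± 0.10, adjusted p = 0.000217). Ndufa4 read 11.29, 11.17 and 11.44 against 10.87, 10.36 and 10.32 at 48 h, and 11.09, 11.78 and 11.29 against 10.47, 10.35 and 10.43 at 72 h. Its change was -0.78 ± 0.14 and -0.97 ± 0.15, again with no overlap. Cox7a2, the general form of the subunit that Cox7a1 replaces in muscle, changed by -0.95 ± 0.26 at 48 h and -1.03 ± 0.08 at 72 h. Its 48 h call was lost, with an adjusted p of up to 0.0919, when any OVA array or pretreated replicate 1 or 3 was left out.

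**Figure D3:**
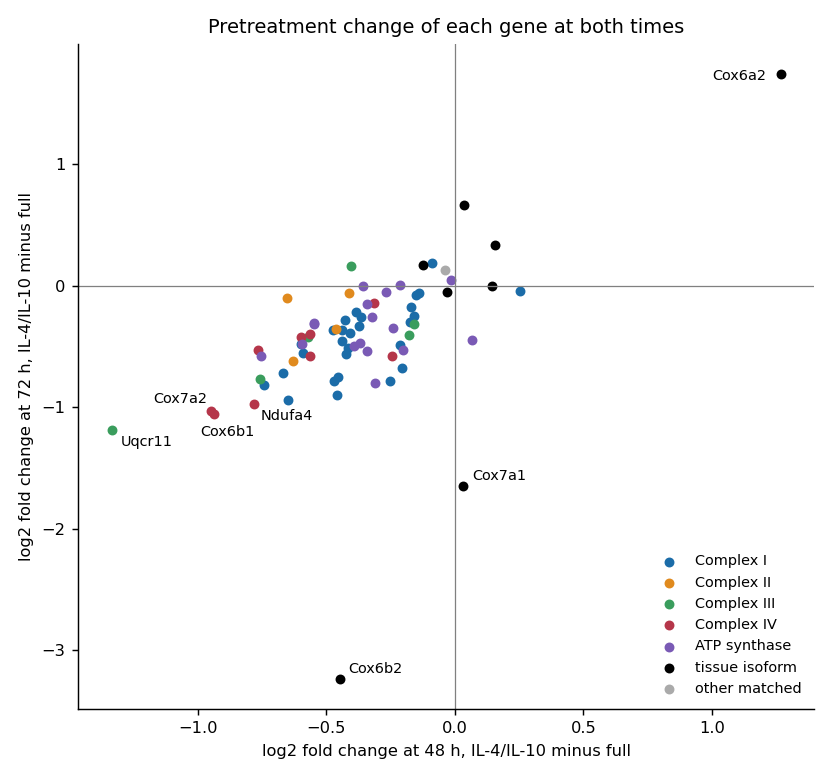
Change of each of the 73 genes with pretreatment at 48 h (x axis) and at 72 h (y axis), as log2 fold changes, coloured by complex, with tissue isoforms in black. The common subunits lie mostly below 0 on both axes, Cox6a2 lies above 0 on both (1.27 and 1.74), and Cox7a1 and Cox6b2 lie low at 72 h, at -1.65 and -3.23.

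Core subunits were called in part. Uqcrfs1 fell at both times (-0.76 ± 0.19 and -0.77 ± 0.11), as did Cox5a (-0.77 ± 0.17 and -0.53 ± 0.09) and Ndufs1 (-0.59 ± 0.15 and -0.55 ± 0.14). Sdha and Sdhb fell at 48 h (-0.41 ± 0.13 and -0.46 ± 0.13), and at 72 h their changes of -0.06 ± 0.09 and -0.35 ± 0.12 were not called. The 4 probe sets of Sdha at 72 h ranged from -0.50 to -0.06, so its difference between the times depends on the probe set used. Atp5a1 and Atp5b, the alpha and beta subunits of the ATP synthase head, were not called at 48 h (-0.36 ± 0.14 and -0.21 ± 0.12) or at 72 h, where Atp5b changed by 0.01 ± 0.11. Cox4i1 was not called at either time (-0.32 ± 0.33 and -0.14 ± 0.09). Of the lists around the chain, 24 of 73 mitochondrial ribosomal proteins fell and 1 rose at 72 h, and 38 of 71 fell at 48 h. Over all genes, 5.91% were called lower at 72 h and 5.93% at 48 h. Complex I assembly factors fell in 4 of 15 and 8 of 16 cases, with Ndufaf6 at -1.17 ± 0.23 and -1.10 ± 0.23. Idh3a, a catalytic subunit of the citric acid cycle's NAD-dependent isocitrate dehydrogenase, fell by 0.88 at 72 h (-0.88 ± 0.15) and by 1.63 at 48 h (-1.63 ± 0.22).

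The G2/M mean fell with pretreatment as well, from 9.19 to 7.18 at 48 h (6.60, 6.81 and 8.14 on the pretreated arrays) and from 10.03 to 8.44 at 72 h (7.43, 9.44 and 8.44). The common subunits on those same pretreated arrays averaged 8.93, 9.08 and 9.10 at 48 h and 10.34, 10.48 and 10.36 at 72 h. At each time the pretreated arrays stood in the same order by both means, but so few arrays cannot show that the means move together. By group means in the low media with OVA, low arginine had a higher G2/M mean than low leucine and a lower subunit mean. Low lysine was lowest by both. Orders of arrays within a group and of group means are not comparable, and neither was tested. Of 19 macrophage markers, 7 rose at 48 h and 1 at 72 h, where 2.71% and 3.78% of all genes were called higher. The 72 h count stands near that share. The part of either list in the subunits' change was not tested.

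In the low media with OVA some common subunits were lower than in full medium with OVA. In low arginine 11 members fell and 1 rose of 80 (4.67% of all genes called, 3.17% lower and 1.51% higher), in low leucine 3 fell and 1 rose (2.72%, 1.56% and 1.15%), and in low lysine 13 fell and 1 rose (8.73%, 6.24% and 2.49%). The gene that rose was Cox6a2 each time. In low leucine the 4 calls among 80 members stand near the background. The medians were -0.24, -0.16 and -0.34, where all genes stood at 0.01, 0.00 and 0.02. The mean over common subunits was 9.45 ± 0.04 in full medium with OVA, 9.16 ± 0.02 in low arginine, 9.28 ± 0.02 in low leucine and 9.08 ± 0.30 in low lysine (SD, n = 3 each). In low lysine the arrays read 9.06, 8.79 and 9.39, the last of them just below the full-medium arrays at 9.42, 9.50 and 9.43.

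Uqcr11 read 8.25, 8.08 and 8.21 in low arginine, 8.43, 8.12 and 8.61 in low leucine and 8.29, 7.78 and 8.67 in low lysine. All 9 arrays were below the full-medium arrays, and the changes were -1.08 ± 0.22, -0.87 ± 0.22 and -1.01 ± 0.22 (limma adjusted p = 0.00416, 0.0295 and 0.00553). The levels without OVA in the low media, from 7.38 to 8.16, overlapped these. Ndufa4 read 10.44, 10.50 and 10.53 in low arginine, 10.62, 10.62 and 10.68 in low leucine and 10.79, 10.45 and 11.10 in low lysine, with changes of -0.81 ± 0.14, -0.66 ± 0.14 and -0.52 ± 0.14. The low leucine calls of Uqcr11 and Ndufa4 are the less stable ones, lost without OVA replicate 3 (adjusted p up to 0.183 and 0.065), and for Uqcr11 also without any of 4 other arrays. Cox6b1 fell in low arginine (-0.85 ± 0.14) and was not called in low leucine (-0.45 ± 0.14) or low lysine (-0.35 ± 0.14). Atp5g3 fell in low arginine (-0.59 ± 0.12) and low lysine (-0.73 ± 0.12), and differed by -0.40 ± 0.12 in low leucine without being called. Atp5md, a small membrane subunit of ATP synthase, fell in low arginine (-0.81 ± 0.20, a call lost in 4 of 13 alternatives), and Atp5k in low leucine (-0.33 ± 0.09), a call lost in 7 of 13 alternatives. Atp5a1, Atp5b, Ndufv1, Sdha, Sdhb, Uqcrc1, Cox4i1 and Cox5a were called in none of the 3 media.

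Single arrays decide several of these counts. In low arginine 7 members were called without any 1 of the OVA arrays in full medium. In low leucine 2, 1, 2 and 2 were called without OVA replicate 2 or 3 or low leucine replicate 1 or 2. In low lysine 6 and 5 were called without OVA replicate 2 or 3, 4 without low lysine replicate 1 or 2, and 35 (34 lower) without low lysine replicate 3. That array had the highest G2/M mean of its group, 8.36 against 6.11 and 7.32. B cell markers also moved in low lysine with OVA, where 5 of 7 rose (2.49% of all genes were called higher). Their arrays averaged 5.41 to 6.56 against 5.19 to 5.22 in full medium. The part of the G2/M genes or the B cell markers in these counts was not tested. With only the compared groups in the fit, 33, 17 and 3 members were called in low arginine, leucine and lysine.

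Between the low media with OVA few subunits were called, and counts this small are not shown to differ from the shares over all genes. Low arginine against low leucine gave 0 of 80 called by limma (0.712% of all genes, 0.234% higher and 0.478% lower), with 10 of 80 at an unadjusted p below 0.05 where 9.59% of all genes had one, and 8 called when only these groups entered the fit. Low arginine against low lysine gave 2 higher and 2 lower (3.22% of all genes, 2.65% higher and 0.577% lower), and low leucine against low lysine 1 higher (1.88%, 1.59% higher and 0.289% lower). Cox7a2l read 8.88, 8.85 and 8.76 in low arginine, 8.91, 8.83 and 8.88 in low leucine and 8.24, 8.15 and 8.21 in low lysine. The low lysine arrays lay below both others without overlap, by 0.63 ± 0.15 and 0.67 ± 0.15 (adjusted p = 0.0205 and 0.0238). Against its own control without OVA, Cox7a2l fell in low lysine by 0.59 (-0.59 ± 0.15), and it was not called in the other media. Ndufb11 was higher in low arginine than in low lysine (0.90 ± 0.23), and Ndufa8 and Cox6b1 were lower (-0.63 ± 0.17 and -0.50 ± 0.14). Low arginine against low lysine gave 0, 1 and 0 calls without low arginine replicate 1, 2 or 3, and 0 and 2 without low lysine replicate 1 or 2. Low leucine against low lysine gave 0 without any 1 low leucine array or without low lysine replicate 1 or 2. Without low lysine replicate 3, low leucine against low lysine gave 14 called members, 13 of them higher in low leucine.

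Against full medium with OVA, the muscle form Cox6a2 was higher where common subunits were lower, while against no OVA it rose in the low media as they did. With OVA at 48 h it read 6.85, 6.77 and 7.17 in full medium, 7.72, 8.60 and 8.28 with pretreatment, 8.47, 8.82 and 9.16 in low arginine, 9.06, 9.03 and 8.80 in low leucine and 8.28, 7.81 and 8.32 in low lysine. Every array of the 4 altered conditions lay above every full-medium array. Without OVA it read 7.13 and 6.85 in low arginine, 7.31, 7.49 and 7.07 in low leucine and 7.43, 6.91 and 6.69 in low lysine, which overlaps full medium with OVA. No full-medium group without OVA was measured at this time.

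The change of Cox6a2 against full medium with OVA was 2.03 ± 0.22 in low leucine (limma adjusted p = 3.83e-06), 1.27 ± 0.22 with pretreatment (adjusted p = 0.00066) and 1.20 ± 0.22 in low lysine (adjusted p = 0.0016), and it was also called in low arginine. Against no OVA it rose by 1.82 ± 0.25 in low arginine, 1.68 ± 0.22 in low leucine and 1.13 ± 0.22 in low lysine. The F test for a difference between these 3 gave an adjusted p of 0.649. At 72 h Cox6a2 read 4.77, 4.55 and 4.79 untreated, 5.40, 5.25 and 5.15 with OVA and 6.32, 7.92 and 6.79 with pretreatment. The pretreated arrays stood highest, with a rise of 1.74 ± 0.34 (adjusted p = 0.0113) that misses the threshold without OVA replicate 3 (adjusted p = 0.0538). OVA itself gave 0.56 ± 0.34, which was not called. The untreated and OVA means at 72 h lie at the 46.3rd and 53.5th percentile of all genes. They are not shown to be above background, so the sizes of these 72 h differences are uncertain. Cox6a2 kept its call under each of the 13 or 14 alternatives run in each of the 48 h comparisons against full medium, and against no OVA in low arginine and low leucine. Among the low media with OVA the order was leucine, arginine, lysine, and low lysine was below low leucine by 0.83 ± 0.22 (adjusted p = 0.0525) and below low arginine by 0.68 ± 0.22 (adjusted p = 0.105), neither called.

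Of 13 other muscle genes, 1 was called with pretreatment at each time and in each low medium with OVA, and it was lower. Of all genes, 5.93% and 5.91% were called lower with pretreatment at 48 h and 72 h. In low arginine, leucine and lysine 3.17%, 1.56% and 6.24% were, so 1 call says little of the muscle genes. Their mean was 5.28 in full medium with OVA, 5.29 with pretreatment and 5.21 to 5.28 in the low media with OVA. At 72 h it was 4.02 untreated, 3.84 with OVA and 3.67 with pretreatment. Cox6a1, the general form of the same subunit, fell with pretreatment by 0.56 at 48 h (-0.56 ± 0.10) and by 0.39 at 72 h (-0.39 ± 0.08). In the low media it changed by -0.30 ± 0.10, -0.17 ± 0.10 and -0.05 ± 0.10, not called.

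The other muscle and testis forms had patterns of their own. Cox7a1 at 72 h read 3.40, 3.77 and 3.91 untreated, 5.64, 5.19 and 5.94 with OVA and 3.80, 4.19 and 3.84 with pretreatment. It rose with OVA by 1.90 ± 0.22 (adjusted p = 4.86e-05) and was lower with pretreatment by 1.65 (-1.65 ± 0.22, adjusted p = 0.00205), with the OVA arrays above all others. The untreated and pretreated means lie at the 34.8th and 41.9th percentile of all genes, and no detection calls were used here, so these probes are not shown to be above background and the sizes of both differences are uncertain. At 48 h it read 5.89, 6.36 and 6.36 with OVA and 6.37, 5.82 and 6.51 with pretreatment, which overlap (0.03 ± 0.22, not called). It fell in low lysine (-0.81 ± 0.22, a call lost in 5 of 12 alternatives), and rose with OVA in low leucine (0.64 ± 0.22). With OVA it averaged 5.39 in low lysine and 5.89 in low leucine, near the 48 h array medians of 5.58 to 5.85. The same limit thus holds for these 48 h changes.

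Cox6b2 at 72 h read 6.84, 6.33 and 5.61 untreated, 8.63, 5.33 and 8.48 with OVA and 3.99, 4.53 and 4.22 with pretreatment. OVA replicate 2 stood apart from the other OVA arrays, below the untreated ones, and the pretreated arrays were lower than all others. The pretreatment difference passed the threshold (adjusted p = 0.0186) and missed it with only the compared groups in the fit and without OVA replicate 1 or 3 or pretreated replicate 1 or 3, with an adjusted p of up to 0.0867. The pretreated mean lies at the 45.8th percentile of all genes, so the same limit holds. At 48 h Cox6b2 lay between 5.39 and 6.94 with no call in any comparison. Cox4i2 fell with OVA in low arginine (-0.51 ± 0.18), lost in 7 of 13 alternatives. Cox7b2, Cox8b, Cox8c and Ndufa4l2 were called in no comparison.

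**Figure D4:**
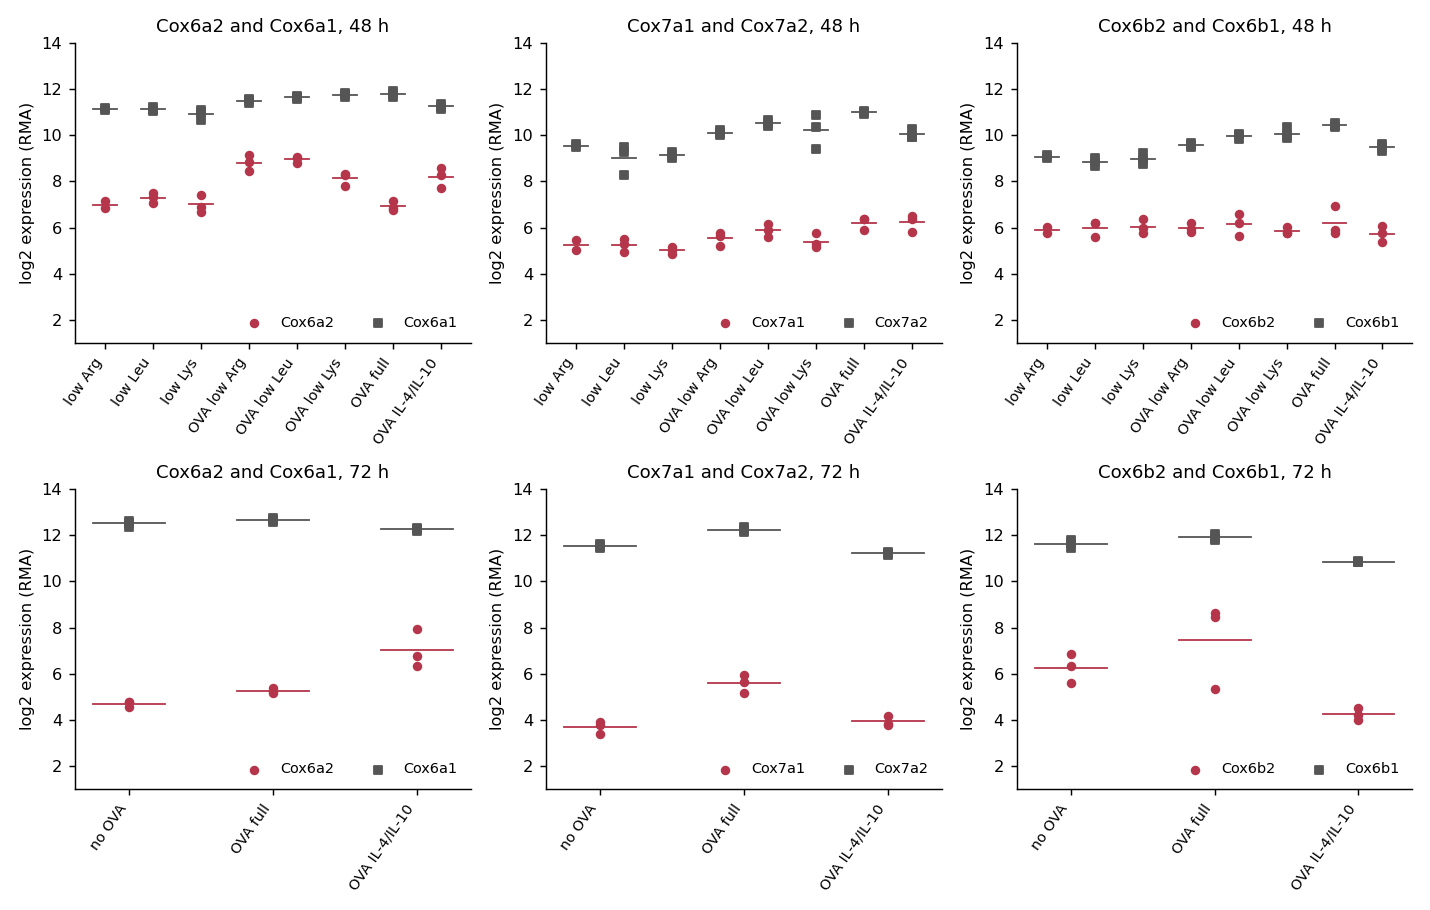
Log2 expression (y axis) of 3 tissue forms of complex IV subunits (red circles) and of their general forms (grey squares) on every array, by group (x axis), at 48 h (top) and 72 h (bottom). Lines are group means. Cox6a2 is highest with OVA in the low media and with pretreatment, while Cox6a1 stays within 10.66 to 11.93 at 48 h. Levels of different probe sets are not compared.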

How the data were processed

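Per the submitters' processing notes, the authors ran RMA (Affymetrix Expression Console 1.1), and each deposited number is the log2 signal of a probe set. Which arrays were normalized together is not given in the sources used here. There are 23 arrays at 48 h (MoGene-2_0-st) and 9 at 72 h (HT_MG-430_PM), never fitted together. Probe sets were named by GEO's platform annotation. Those naming several genes (10 for the members, all at 48 h) were not used, and a gene took its probe set with the highest mean. No filter on low values was applied. Fits used limma 3.58.1 (R 4.3.3) with lmFit and an intensity trend in eBayes, all groups of a platform together, two-sided, with Benjamini-Hochberg adjustment over all genes. The number of arrays limits the precision. The steps were tested on simulated data.

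The members, gene lists and naming rule were chosen with earlier results of these data known. The rule named, per comparison, up to 4 called members with the largest rise and 4 with the largest fall whose groups did not overlap, 10 core subunits, the tissue isoforms with their general forms, and up to 4 called genes per other list. The subunits followed across comparisons, and those named as not called or as an exception, were chosen after their values were seen. Titles number the replicates. Deviations of same-numbered arrays from their group means correlated above 0.1 in every pair in 2 comparisons, 72 h pretreatment (0.16 to 0.26) and the contrast of the low arginine and low leucine groups (0.29 to 0.39), as taken over the 5000 genes with the highest mean. Alternatives were other scalings, probe set and intensity filters, no trend, the compared groups alone, blocks, and each array left out. Python 3.11.15, pandas 2.3.3 and matplotlib 3.10.9 made tables and plots.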

Additional observations from a re-analysis of the deposited data

Results flagged for a closer look

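Ndufa3, an accessory subunit of complex I, had values of opposite sign with antigen at 72 h and at 48 h. It was lower at 72 h in full medium (-0.28, called), and at 48 h it differed by 0.57 in low arginine (adjusted p = 0.0603 by limma, not called) and was higher by 0.61 in low leucine (called). The groups did not overlap in these 3 comparisons. In low lysine the difference was 0.51, not called, and the groups overlapped. The 72 h value turned to 0.23 when arrays were centred on their median. The difference between the times was not tested, since they were measured on different array types.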

How the results depend on the processing

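The direction of the member median was kept under every alternative run, except in low arginine against low lysine, where it changed in 2. Calls depended on the setting where they were few. With arrays centred on their median, 75 members were called for antigen at 72 h, 2 for low arginine against low lysine and 3 for low leucine against low lysine. With quantile normalization, 6 were called in low lysine against full medium, 31 for antigen in low arginine, 1 for low arginine against low leucine and 0 for low leucine against low lysine. With only the compared groups, 33, 17 and 3 were called in low arginine, leucine and lysine against full medium, 8 for low arginine against low leucine and 0 for each of the other pairs of low media. Genes above the platform median gave 3 for low leucine against low lysine, and a fit without intensity trend gave 2 for low arginine against low lysine. With the submitter ID run as a block, 2 were called for low arginine against low lysine and 2 for low leucine against low lysine. With the replicate number as a block, 2 were called for low leucine against low lysine, and no other count of members moved by over 1.5 times. With 1 array left out at a time, counts ran from 40 to 46 for antigen at 72 h, 36 to 47, 57 to 67 and 46 to 62 for antigen in low arginine, leucine and lysine, 19 to 45 and 10 to 21 for pretreatment at 72 h and 48 h, 7 to 10, 1 to 3 and 4 to 35 for low arginine, leucine and lysine against full medium, and 0 to 0, 0 to 5 and 0 to 14 for low arginine against leucine, arginine against lysine and leucine against lysine. The antigen by medium test called 0 members in all 8 settings and 17 left-out arrays.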
